A study of Mus musculus with 12 samples.

Results

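The genes described here were 44 genes of mitosis, the division of a cell's copied chromosomes between daughter cells, chosen as a list of symbols among the 37477 rows of the deposited RNA-seq table. They were followed in the mouse embryonic stem cell line CCE after a lentivirus had carried in a short hairpin RNA against TUNA, a long intergenic noncoding RNA. The 12 libraries of total RNA form 4 groups of 3: the TUNA hairpin at day 2, day 4 and day 6 after transduction, and a control hairpin at day 2. The cells of all 4 groups were transduced with a pLKO.1-puro virus, kept under puromycin and grown in serum with LIF, a cytokine that keeps such cells undifferentiated. The target of the control hairpin was not given in the sources used here. The control was analysed at day 2 alone, so at day 4 and day 6 the hairpin and the time since transduction cannot be told apart. Nothing in the labels says that the 3 libraries of a group are separate cultures. P-values therefore measure only how these libraries vary, and that variation may be technical. In such bulk RNA, fewer cells in mitosis and less of a transcript per cell cannot be told apart.

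Mitosis is started by the kinase Cdk1 bound to cyclin A or cyclin B, helped by Cdc25 phosphatases and by Plk and Aurora kinases. Condensin compacts the chromosomes, kinetochores attach them to the spindle, and the spindle checkpoint holds back the anaphase-promoting complex until all are attached. Cdc20 then activates that complex, which marks securin and cyclin B for destruction, and the central spindle guides the cut between the daughter cells. Many of these genes are transcribed together late in the cell cycle, under B-Myb, FoxM1 and the MuvB core, which binds the cell cycle homology region (CHR), and under NF-Y, which binds the CCAAT box. Embryonic stem cells divide fast, with a short first gap phase.

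The deposited values are log2 normalized counts, raised back here to normalized counts. All 44 genes had a row, and 42 reached 10 normalized counts in 3 or more libraries, the filter for testing; Plk1 and Cdc25b did not. A gene is said to have risen or fallen only where its adjusted p was below 0.05, by limma with Benjamini-Hochberg adjustment over the 8739 rows tested, and every adjusted p below is from that fit. Changes are log2 changes with standard errors, on the log2(normalized count + 1) scale, so that changes of low genes are understated. Of the 42, 11 (26.2%) rose or fell in at least 1 of 5 comparisons, against 20.7% of all rows tested, and 31 did in none.

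The row of the targeted RNA, 2810011L19Rik (a RefSeq synonym of Tunar), held 0 in each of the 12 libraries, that is 1 normalized count or less, so the knockdown could not be read from it. Depth, recovered from the smallest steps between values, was 3522198 to 5652546 reads per library. In each library 60.4% to 76.9% of the reads lay in 3 rows, Rnu3a, Tex14 and LOC100503663. By group this share spanned 72.7% to 74.5% for TUNA day 2, 64.2% to 76.9% for TUNA day 4, 60.4% to 69.3% for TUNA day 6 and 74.0% to 75.5% for the control. All 10 embryonic stem cell markers were measured. Their summed level was 2676 to 2864 normalized counts in TUNA day 2 libraries and 2525 to 2730.0 in TUNA day 4. It was 1953 to 2399 in TUNA day 6 and 2961 to 3229 in control libraries. The markers did not move as one. Against the control, 3 of the 10 fell at day 4 and 3 at day 6, where 7.76% and 3.15% of all rows fell, and none rose. The log2 change was positive for 5 of the 10 at day 4 and for 2 at day 6. Of 10 fibroblast markers, 6 (Col1a1, Col1a2, Col3a1, Dcn, Lum and Postn) were listed at 0 in every library, and the list summed to 13.5 to 35.7 normalized counts in TUNA day 2 libraries, 15.7 to 27.7 in TUNA day 4, 247 to 334 in TUNA day 6 and 7.72 to 14.9 in control libraries. The day 6 sum lay almost wholly in 2 contractile genes, Acta2 and Tagln, with means of 140.3 and 149 normalized counts at day 6, against 0.368 and 6.24 in the control; the means of Thy1 and Fbn1 stayed under 4 in every group. Of 7 endoderm markers, Afp, Ttr and Apoa1 were listed at 0 throughout and none passed the filter. The endoderm list summed to 2.27 to 8.96 normalized counts in TUNA day 2 libraries, 15.0 to 19.7 in TUNA day 4, 1.5 to 10.1 in TUNA day 6 and 4.6 to 8.63 in control libraries, with Gata6 at a mean of 11 in TUNA day 4 and 3.67 in control libraries. The part of these differences in the values of the mitosis genes was not tested.

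The promoters of the mitosis genes were searched for both elements named above. A RefSeq promoter of build GRCm38.p6 was matched for 37 of the 44 genes, read from 250 bases before to 30 bases after the annotated start. A CHR hexamer, TTTGAA on either strand or the palindromic variant TTCGAA, was present in 25 of 37 (67.6%), against 20.9% of 27025 genes with a promoter in the same table. A CCAAT box on either strand was present in 27 of 37 (73.0%), against 39.7% of all, and both elements stood in 22 of 37 (59.5%), against 7.97% of all. These are matches of letters, not measured binding. The promoters of 4 genes that take opposite directions below are printed from 5′ to 3′ on the strand of the gene, with each match in capitals (a CHR on the opposite strand reads TTCAAA and a CCAAT box there reads ATTGG). Prc1 fell at day 2, Cdc20 fell at day 4 and Bub1 and Top2a rose at day 4; all 4 promoters hold both elements. They lie at chr7:80294201-80294480 (plus strand, the first of its listed starts), chr4:118437314-118437593 (minus strand), chr2:127831830-127832109 (minus strand) and chr11:99024160-99024439 (minus strand).
Prc1: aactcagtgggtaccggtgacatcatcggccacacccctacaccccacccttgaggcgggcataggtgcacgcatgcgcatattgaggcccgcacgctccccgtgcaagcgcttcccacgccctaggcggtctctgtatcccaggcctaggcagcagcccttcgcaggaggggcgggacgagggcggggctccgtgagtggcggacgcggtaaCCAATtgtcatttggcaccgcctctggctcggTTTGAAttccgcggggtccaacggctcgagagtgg
Cdc20: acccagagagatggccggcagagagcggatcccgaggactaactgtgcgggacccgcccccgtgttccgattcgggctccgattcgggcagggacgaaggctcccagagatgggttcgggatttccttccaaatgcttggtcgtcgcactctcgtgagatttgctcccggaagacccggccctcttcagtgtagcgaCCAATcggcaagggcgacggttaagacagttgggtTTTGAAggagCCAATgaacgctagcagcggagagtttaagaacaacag
Bub1: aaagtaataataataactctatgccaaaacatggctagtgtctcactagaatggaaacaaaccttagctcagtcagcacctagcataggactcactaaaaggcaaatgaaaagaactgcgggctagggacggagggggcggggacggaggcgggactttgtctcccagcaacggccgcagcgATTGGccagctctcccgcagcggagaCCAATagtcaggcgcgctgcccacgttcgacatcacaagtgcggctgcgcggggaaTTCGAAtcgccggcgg
Top2a: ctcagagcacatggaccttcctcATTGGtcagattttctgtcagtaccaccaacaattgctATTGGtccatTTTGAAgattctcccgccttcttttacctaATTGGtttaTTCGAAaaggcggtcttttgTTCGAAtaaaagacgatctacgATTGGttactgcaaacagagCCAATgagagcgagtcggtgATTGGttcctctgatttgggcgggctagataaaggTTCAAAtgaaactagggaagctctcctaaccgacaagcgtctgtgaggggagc

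**Figure D1:**
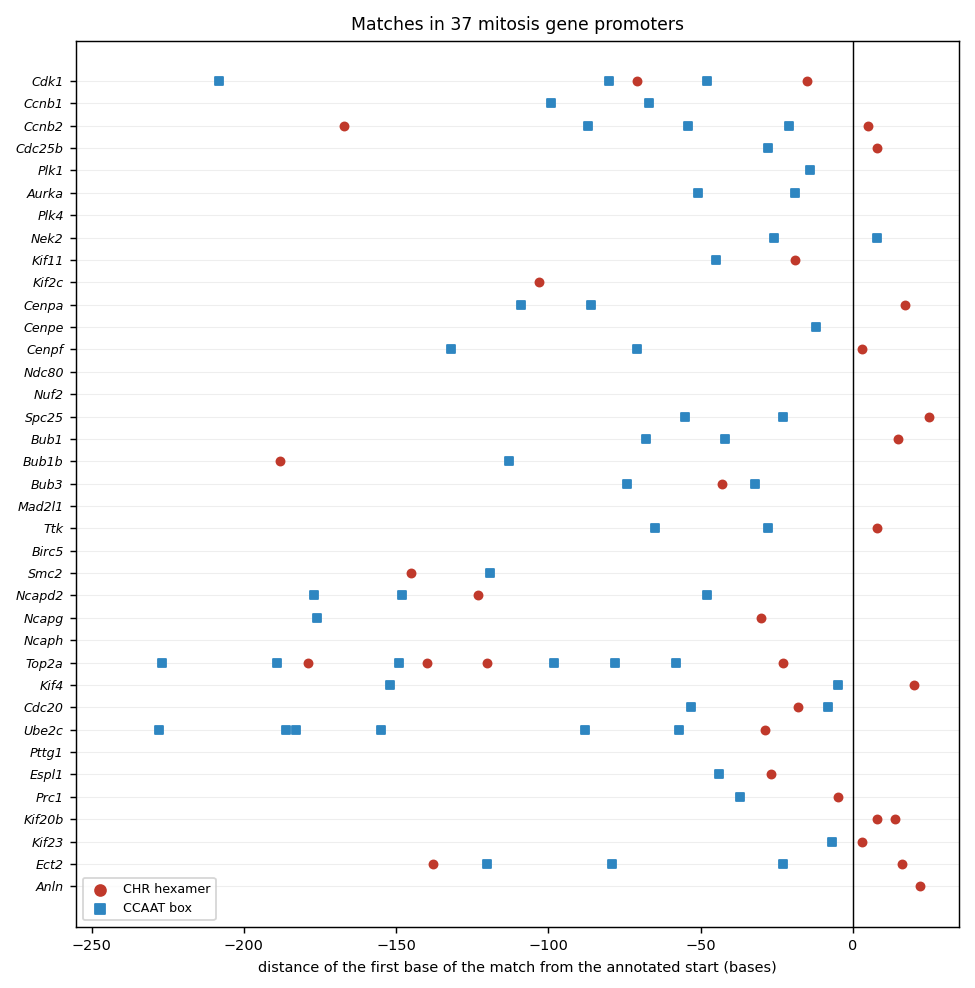
Distance in bases from the annotated start (x axis, 0 at the start) of each CHR hexamer (red circles) and CCAAT box (blue squares) in the 37 mitosis gene promoters matched, 1 row per gene. In 22 of 37 promoters both elements were found, and in Plk4, Ndc80, Nuf2, Mad2l1, Birc5, Ncaph and Pttg1 neither was.

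At day 2, the only day matched in time with its control, 2 of the 42 mitosis genes fell after the TUNA hairpin and none rose. Prc1, which bundles the microtubules of the central spindle, and Ccna2, cyclin A2, were those 2 (4.76% of the 42, against 0.549% of all rows tested). No gene rose by limma, and at an unadjusted p below 0.05 the counts were also 0 higher and 2 lower, where 5.94% of all rows were higher and 6.33% lower. By the adjusted test 0.412% of all rows rose. The median log2 change was 0.01 over the 42 and 0.01 over all rows. The day 2 libraries lay above the 3 controls for 4 of the 42 (9.52%, against 9.76% of all rows) and below them for 2 (4.76%, against 10.3%).

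At day 4, 6 of the 42 rose (14.3%, against 6.99% of all rows) and 3 fell (7.14%, against 7.76%). Those that rose were Kif2c, Smc2, Smc4, Bub1, Top2a and Cenpe, and those that fell were Ccna2, Cdc20 and Aurka. With 1 library left out, 1 to 3 of the 42 rose and 0 to 2 fell; without the intensity trend, or with only the 2 groups fitted, Kif2c and Bub1 were the only 2 that rose. The median log2 change was 0.12 over the 42 and -0.01 over all rows. The 3 day 4 libraries lay above the 3 control libraries for 11 of the 42 (26.2%, against 15.5% of all rows) and below them for 6 (14.3%, against 16.9%).

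At day 6, 1 of the 42 rose, Kif2c (2.38%, against 3.07% of all rows), and none fell by limma, where 3.15% of all rows did. At an unadjusted p below 0.05 the counts were 1 higher (2.38%, against 8.96% of all rows) and 5 lower, against 10.5% of all rows. The median log2 change was -0.13 over the 42 and -0.01 over all rows. The day 6 libraries lay above the controls for 3 of the 42 (7.14%, against 11.2% of all rows) and below them for 7 (16.7%, against 12.8%).

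**Figure D2:**
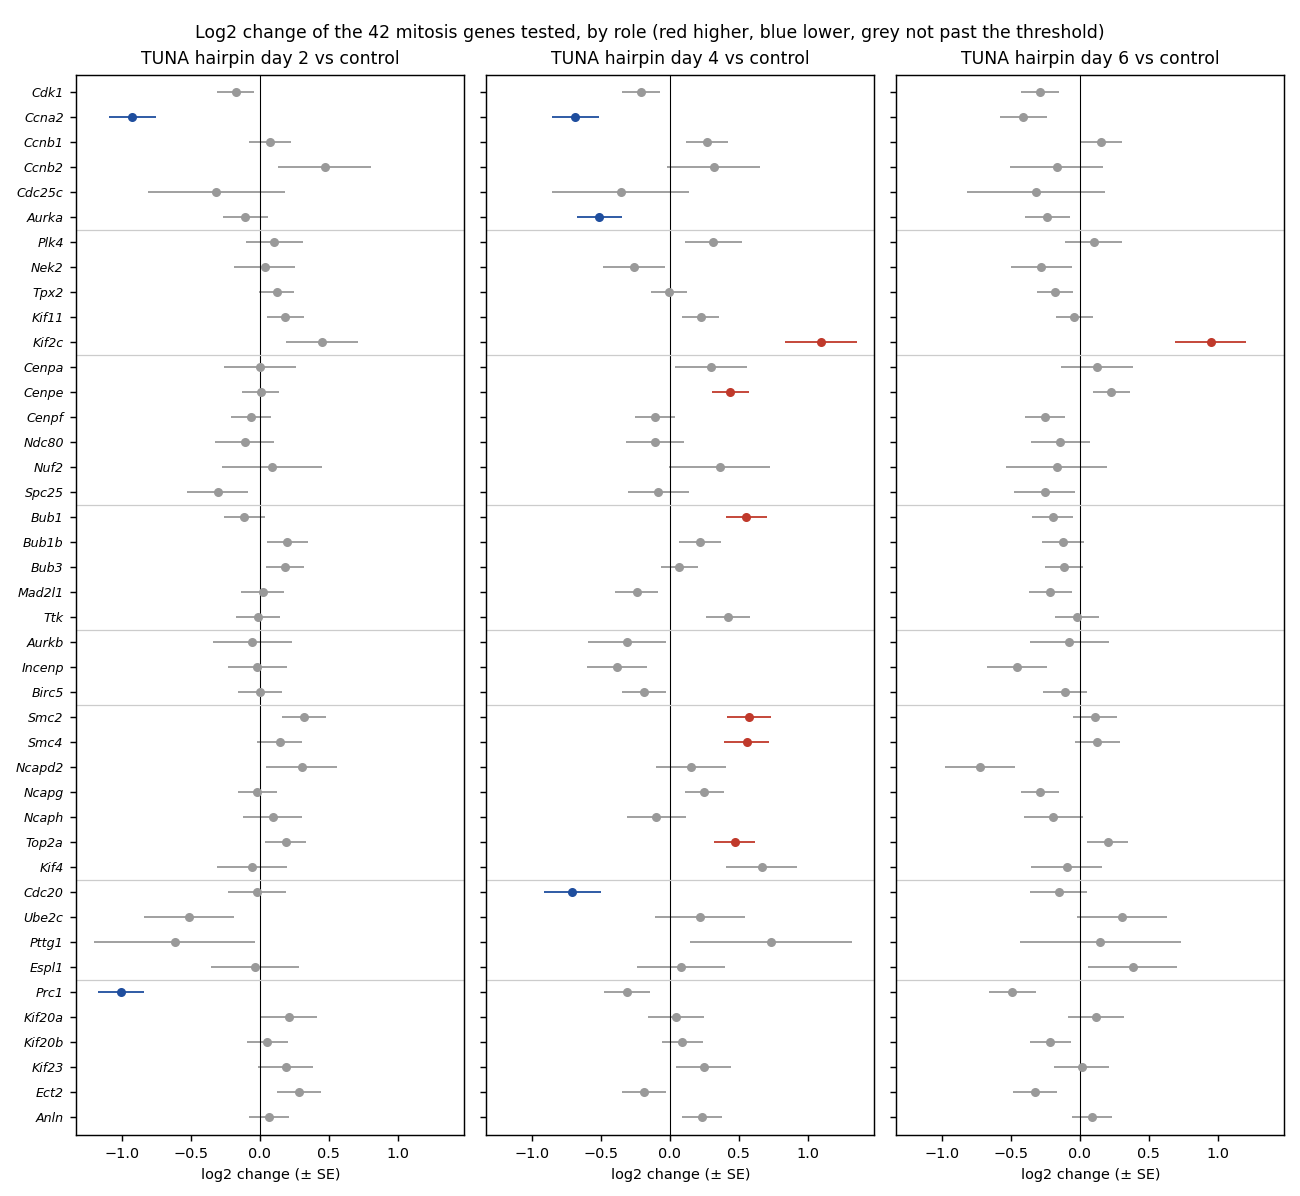
Log2 change of each of the 42 mitosis genes tested (points, with standard errors as bars; x axis in log2 units) in the TUNA hairpin libraries of day 2, day 4 and day 6 against the control hairpin libraries, with lines between roles. Red points rose, blue points fell and grey points did not pass the threshold; Prc1 and Ccna2 stand at the left at day 2, and Kif2c at the right at day 4 and day 6.

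Among the 6 tested genes of mitotic entry, Ccna2 fell at day 2, against 0.549% of all rows. At day 4 Ccna2 and Aurka fell, against 7.76% of all rows. No other gene of the 6 rose or fell. Ccna2, a cyclin of S phase and early mitosis, had 83.1, 87.1 and 80 normalized counts in the TUNA hairpin libraries of day 2. It had 91, 86.5 and 122 at day 4 and 109, 137 and 113 at day 6, against 148, 145 and 188 in the control. All 9 TUNA hairpin libraries lay below all 3 controls, as they did for Prc1; 2 of the 42 (4.76%) had this order, against 3.14% of all rows. Its log2 change was -0.92 ± 0.17 at day 2 (adjusted p = 0.0123), -0.68 ± 0.17 at day 4 (adjusted p = 0.0121) and -0.41 ± 0.17 at day 6, which did not pass (adjusted p = 0.188). The day 2 call was lost without control replicate 3 or without any 1 of the 3 day 2 libraries (adjusted p up to 0.0665), and the day 4 call without control replicate 3 or day 4 replicate 2 (adjusted p up to 0.0655).

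In GENCODE M21, Ccna2 overlaps Exosc9 on the opposite strand, and whether counting used strand was not given in the sources used here. Exosc9 averaged 24.6 ± 4.71 normalized counts at day 2 and 16.8 ± 3.47 in the control (SD, n = 3 each), a log2 change of 0.53 (adjusted p = 0.527).

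Aurka, the Aurora kinase of the spindle poles, had 182, 145 and 159 normalized counts in the TUNA hairpin libraries of day 2, 133, 123 and 110.1 in those of day 4 and 148, 178 and 121 in those of day 6, against 163, 171 and 189 in the control hairpin libraries. Its day 4 libraries were the lowest against every control and day 2 library. At day 4 its log2 change was -0.51 ± 0.16 (adjusted p = 0.042), and leaving out any 1 of the 6 libraries raised the adjusted p above 0.05 (up to 0.13).

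The kinase itself and its B-type cyclin did not pass at any day. Cdk1 had 733, 776 and 814 normalized counts in the TUNA hairpin libraries of day 2, 658, 844 and 779 in those of day 4 and 793, 686 and 672 in those of day 6, against 924, 798 and 906 in the control hairpin libraries, with log2 changes of -0.18 ± 0.14, -0.21 ± 0.14 and -0.29 ± 0.14 at day 2, day 4 and day 6. Its day 6 libraries all lay below the controls, and its day 2 and day 4 libraries overlapped with them. Ccnb1, cyclin B1, had 228, 298 and 260.1 normalized counts in the TUNA hairpin libraries of day 2, 321, 281 and 296 in those of day 4 and 264, 327 and 242 in those of day 6, against 222, 259.5 and 264 in the control hairpin libraries; its day 4 libraries all lay above the controls (log2 change 0.27 ± 0.15, adjusted p = 0.247). Ccnb2, cyclin B2, ranged from 220.0 to 615 normalized counts among the day 4 libraries alone. Plk1, the Polo kinase of mitotic entry, was low, with 5.6, 8.33 and 8.81 normalized counts in the TUNA hairpin libraries of day 2, 4.55, 4.55 and 7.26 in those of day 4 and 4.5, 9.12 and 12.8 in those of day 6, against 8.21, 8.77 and 7.72 in the control hairpin libraries, so that it was not tested.

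Of 7 tested genes of chromosome compaction, 3 rose at day 4, against 6.99% of all rows. Roles were chosen with earlier results of these data known, so this share is only a description. Smc2, an ATPase core subunit of condensin, had 250.1, 268 and 293 normalized counts in the TUNA hairpin libraries of day 2, 263, 302 and 424 in those of day 4 and 235, 225 and 242 in those of day 6, against 216, 221 and 213 in the control hairpin libraries. Every TUNA hairpin library exceeded every control, the only such case among the 42 (2.38%, against 2.28% of all rows). The log2 change was 0.57 ± 0.16 at day 4 (adjusted p = 0.0212); it was 0.38 without day 4 replicate 3, the highest library, and the call was lost then and without any 1 of the 3 controls.

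Smc4, the partner of Smc2 in the condensin ring, had 179, 163 and 171 normalized counts in the TUNA hairpin libraries of day 2, 179, 236 and 279.8 in those of day 4 and 174, 158 and 175 in those of day 6, against 171, 159 and 136 in the control hairpin libraries. Its day 4 libraries lay above all the other 9, for replicate 1 by less than 1 normalized count. Against the control, day 4 gave a log2 change of 0.56 ± 0.16 (adjusted p = 0.0291), and the call was lost on leaving out replicate 2 or 3 of day 4, or replicate 2 or 3 of the control (adjusted p up to 0.111). Smc4 is annotated as the host of Mir15b and Mir16-2; whether their reads entered the host's row was not given in the sources used here.

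Top2a, topoisomerase II alpha, which untangles sister chromatids, had 581, 543 and 572 normalized counts in the TUNA hairpin libraries of day 2, 722, 641 and 698 in those of day 4 and 562, 698 and 472 in those of day 6, against 559, 446 and 489.7 in the control hairpin libraries. All 3 day 4 libraries exceeded every control and every day 2 library, and the day 6 libraries spread across that range. At day 4 Top2a rose by a log2 change of 0.47 ± 0.15 (adjusted p = 0.042), and the call was lost with any 1 of the 6 libraries left out except control replicate 1 (adjusted p up to 0.157). In GENCODE M21, Top2a overlaps 2 small RNA genes, Gm23451 on its strand and Gm26394 on the opposite strand. Whether their reads entered the Top2a row was not given in the sources used here.

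Ncapg, a non-SMC subunit of condensin I, had 141, 152 and 152 normalized counts in the TUNA hairpin libraries of day 2, 169, 181 and 187 in those of day 4 and 123, 112 and 134 in those of day 6, against 159.9, 140.1 and 151 in the control hairpin libraries. Its day 4 libraries lay above all the other 9, and it fell at day 6 relative to day 4 (log2 change -0.54 ± 0.14, adjusted p = 0.0298, lost without day 4 replicate 2 or 3 or day 6 replicate 1 or 2). Against the control it passed at no day. Ncapg overlaps Lcorl on the opposite strand in GENCODE M21. Lcorl averaged 59.9 ± 15 normalized counts at day 4 and 20.8 ± 4.75 in the control (SD, n = 3 each; log2 change 1.47, adjusted p = 0.00245).

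Of 6 tested centromere and kinetochore genes, 1 rose at day 4, Cenpe. Of 5 tested spindle checkpoint genes, 1 rose, Bub1, where 6.99% of all rows rose. Bub1, the checkpoint kinase that recruits its partners to kinetochores, had 112, 114 and 113 normalized counts in the TUNA hairpin libraries of day 2, 186, 178 and 177 in those of day 4 and 104, 111 and 105 in those of day 6, against 118, 146 and 106 in the control hairpin libraries. The 3 day 4 libraries sat closely together and above all the other 9. The day 2 and the day 6 libraries each overlapped with the controls, and those of day 6 all lay below those of day 2. It rose at day 4 against the control (log2 change 0.55 ± 0.15, adjusted p = 0.0178) and against day 2 (0.67 ± 0.15, adjusted p = 0.0107), and fell at day 6 relative to day 4 (-0.75 ± 0.15, adjusted p = 0.00541). The calls of day 4 against day 2 and day 6 against day 4 held with any 1 library left out. The call of day 4 against the control was lost on leaving out replicate 1 or 2 of day 4, or replicate 1 or 3 of the control (adjusted p up to 0.0852).

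Cenpe, a motor protein that carries chromosomes along microtubules from the kinetochore, had 138, 136 and 138 normalized counts in the TUNA hairpin libraries of day 2, 179, 182 and 196 in those of day 4 and 152, 174 and 156 in those of day 6, against 137, 142 and 132 in the control hairpin libraries. Its day 4 libraries lay above all the other 9, and its day 6 libraries above the controls. It rose at day 4 with a log2 change of 0.44 ± 0.13 (adjusted p = 0.0347), and leaving out any 1 library raised the adjusted p above 0.05 (up to 0.1). Bub1b, the BubR1 checkpoint protein, had 286, 303 and 286 normalized counts in the TUNA hairpin libraries of day 2, 304, 330.4 and 258 in those of day 4 and 227, 277 and 202 in those of day 6, against 226, 266 and 273 in the control hairpin libraries, and it passed at no day.

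A day 4 level above every other library was seen for Cenpe, Bub1, Ttk, Smc4, Ncapg and Kif4, 6 of the 42 (14.3%, against 4.29% of all rows). Ttk is the checkpoint kinase Mps1 and Kif4 a motor that works with condensin; neither passed at day 4 against the control, with log2 changes of 0.42 ± 0.16 (adjusted p = 0.0842) and 0.66 ± 0.26 (adjusted p = 0.0895). Only Cdc20 lay below every other library at day 4 (2.38%, against 3.91% of all rows).

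Cdc20, the activator of the anaphase-promoting complex that the checkpoint holds back, had 60.1, 76.7 and 82.1 normalized counts in the TUNA hairpin libraries of day 2, 42.1, 48.3 and 43.7 in those of day 4 and 70.7, 77.8 and 52 in those of day 6, against 92.2, 58.4 and 73.6 in the control hairpin libraries. The log2 change was -0.71 ± 0.21 at day 4 against the control (adjusted p = 0.0294) and -0.69 ± 0.21 against day 2, which did not pass (adjusted p = 0.0525). The day 4 call against the control was lost with any 1 of the 6 libraries left out except control replicate 2 (adjusted p up to 0.137), and at day 2 and day 6 the log2 changes of -0.02 and -0.15 turned positive without control replicate 1. Cdc20 overlaps Elovl1 on the opposite strand, whose row held 1.42 to 7.99 normalized counts over the 12 libraries. Of the other genes of anaphase, Ube2c, Pttg1 (securin) and Espl1 (separase) passed in no comparison.

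The chromosomal passenger complex did not pass at any day. Aurkb, its kinase, had 31.6, 27.1 and 22.3 normalized counts in the TUNA hairpin libraries of day 2, 28.4, 14.7 and 26.4 in those of day 4 and 18.1, 32.5 and 31 in those of day 6, against 25.1, 29.3 and 29.4 in the control hairpin libraries. The groups overlapped at every day, and the log2 changes of -0.06 at day 2 and -0.08 at day 6 changed sign when 1 library was left out. Incenp, its scaffold, had log2 changes from -0.46 at day 6 to -0.02 at day 2, and Birc5 (survivin) had -0.19 ± 0.16 at day 4.

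Among the 6 genes of cytokinesis, Prc1 fell at day 2, against 0.549% of all rows, and the other 5 passed in no comparison. Prc1 had 52.4, 50.9 and 48.8 normalized counts in the TUNA hairpin libraries of day 2, 79.4, 74.1 and 96.2 in those of day 4 and 78.1, 81.1 and 61.4 in those of day 6, against 110.1, 98.3 and 101 in the control hairpin libraries. All 9 TUNA hairpin libraries lay below the 3 controls, and the day 2 libraries were the lowest of all. The log2 change was -1.01 ± 0.17 at day 2 (adjusted p = 0.00818), a call that held with any 1 library left out, -0.31 ± 0.17 at day 4 (adjusted p = 0.23) and -0.49 ± 0.17 at day 6 (adjusted p = 0.103). Prc1 rose at day 4 relative to day 2 (0.70 ± 0.17, adjusted p = 0.0175, lost without day 2 replicate 2 or 3 or day 4 replicate 3). Prc1 overlaps Rccd1 and 6330403N20Rik on the opposite strand; Rccd1 had a log2 change of -0.18 at day 2 (adjusted p = 0.865).

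**Figure D3:**
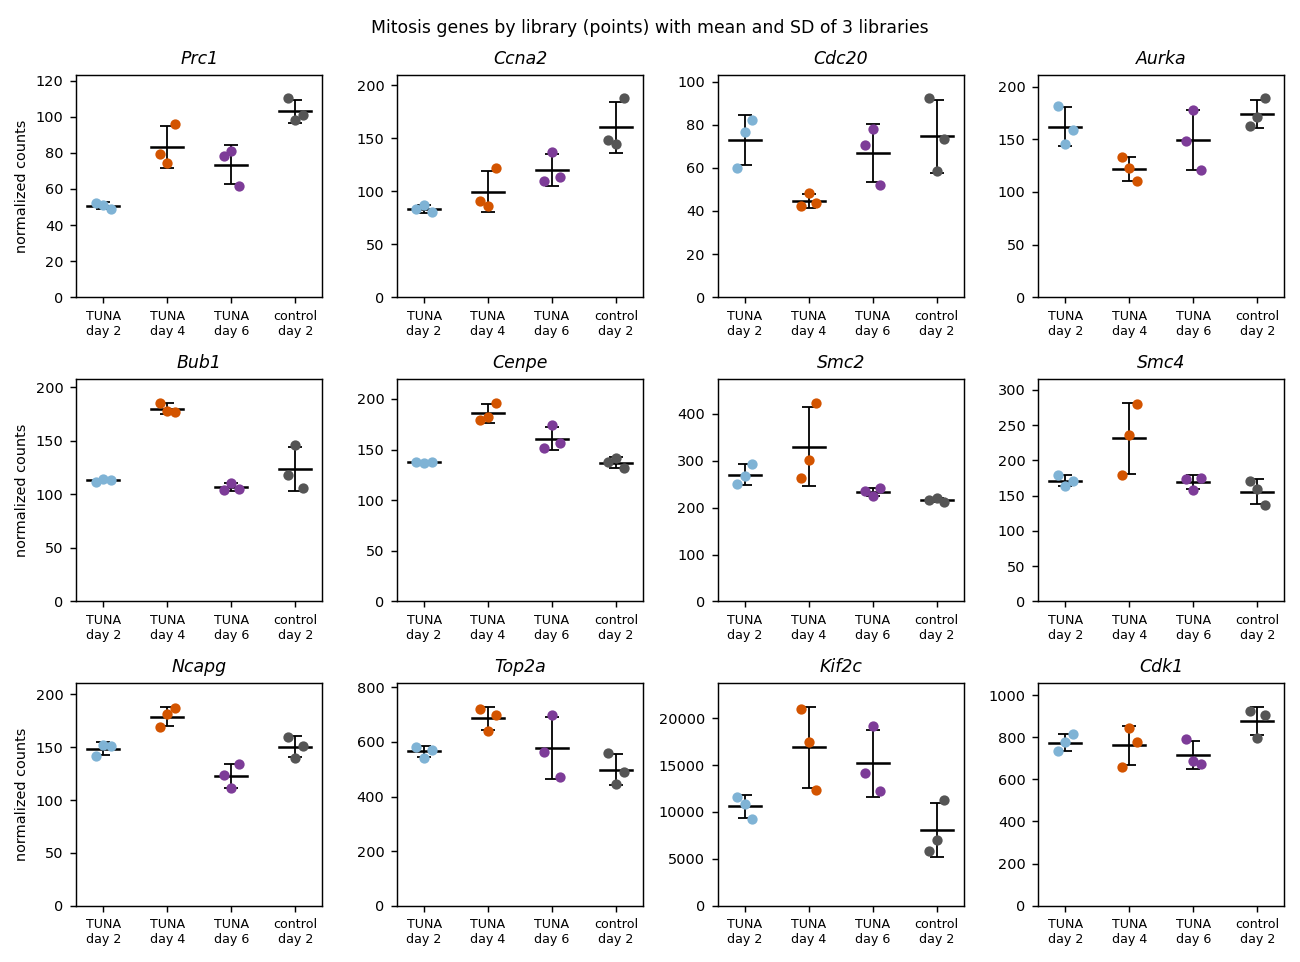
Normalized counts (y axis, from 0) of 12 mitosis genes in each library (points), with the mean (long bar) and SD (error bar) of 3 libraries, for the TUNA hairpin at day 2, day 4 and day 6 and the control hairpin at day 2. Prc1 and Ccna2 lie below the control in all 9 TUNA hairpin libraries, and Bub1 and Cenpe are highest at day 4.

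Kif2c, a kinesin that takes microtubules apart at their ends, gave the largest values of the list. It had 11646, 10856 and 9288 normalized counts in the TUNA hairpin libraries of day 2, 20930.2, 17419 and 12334 in those of day 4 and 14151, 19177 and 12199 in those of day 6, against 5876, 6982 and 11294 in the control hairpin libraries. Day 4 and day 6 libraries all exceeded the controls, while day 2 libraries overlapped with them. The log2 change was 0.45 ± 0.26 at day 2 (adjusted p = 0.523), 1.09 ± 0.26 at day 4 (adjusted p = 0.00925) and 0.95 ± 0.26 at day 6 (adjusted p = 0.0379). The day 4 call was lost without control replicate 1 (adjusted p = 0.0537), and the day 6 call without any 1 of control replicates 1 and 2 and day 6 replicates 1 and 2 (adjusted p up to 0.184). The day 6 call was also lost with no filter, with no intensity trend, with only the 2 groups fitted and with the replicate block. The control mean of Kif2c was 8050.7 normalized counts, against 737.1 for the stem cell marker Pou5f1. GENCODE M21 lists no other gene that overlaps Kif2c. Whether the reads of this row came from the Kif2c mRNA was not tested.

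Within day 4 and day 6, the library with the lowest share of reads in the 3 abundant rows had the highest Kif2c. In replicates 1, 2 and 3 that share was 74.5%, 72.7% and 73.4% at day 2, 64.2%, 72.9% and 76.9% at day 4 and 67.6%, 60.4% and 69.3% at day 6, against 75.5%, 74.0% and 74.0% in the control. Of the other genes that rose at day 4, Bub1 and Top2a were also highest in the library with the lowest share, at both days. Smc2 and Smc4 were lowest in that library at both days. Cenpe was lowest in it at day 4 and highest in it at day 6. Whether this share has a part in any of these values was not tested.

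To compare genes roughly, levels were divided by the length of all annotated exons of a gene. That length can exceed the mRNA, and not equally for every gene. Per kilobase of it, Kif2c averaged 2910.0 normalized counts over the 12 libraries. Ncapd2, a condensin I subunit whose gene holds the small RNA gene Scarna10, followed with 355, then Ccnb2 with 239, Cdk1 with 158 and Kif11, the bipolar spindle motor, with 119. Over the libraries, Ncapd2, Ccnb2 and Cdk1 each overlapped in range with the next of these genes, the last with Kif11, while the lowest Kif2c library lay above the highest of Ncapd2. The other 39 ran down to Plk1 with 3.42, Espl1 with 2.66, Cdc25c with 1.57 and Cdc25b with 0.735.

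**Figure D4:**
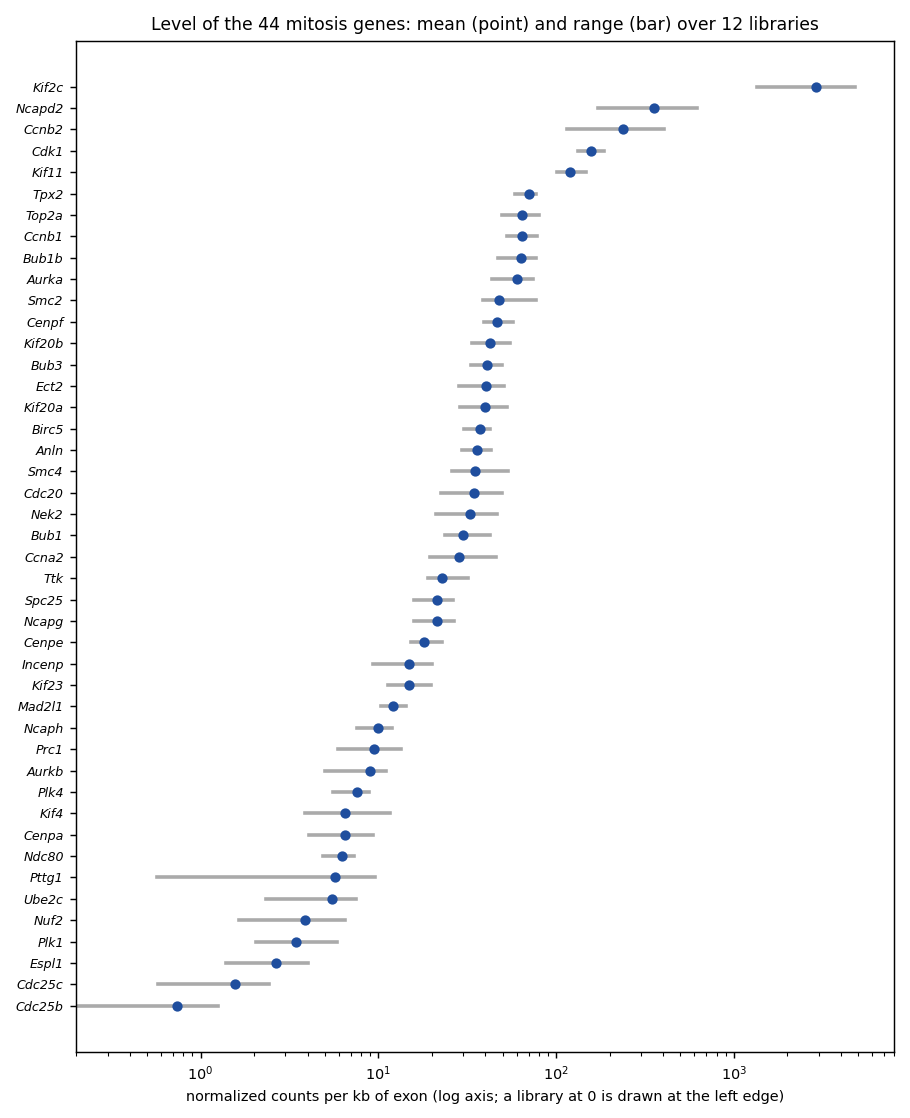
Level of each of the 44 mitosis genes in normalized counts per kilobase of exon (x axis, log scale), as the mean over 12 libraries (points) with the lowest and highest library (bars). Kif2c stands far above the others and Cdc25b is lowest, with a bar that reaches the edge where a library was at 0.

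Setting days against each other, 2 of the 42 rose at day 4 relative to day 2, Prc1 and Bub1 (4.76%, against 3.27% of all rows), and none fell by limma, where 4.38% of all rows did; at an unadjusted p below 0.05 9 were higher and 3 lower, where 11.2% of all rows were higher and 12.4% lower. At day 6 relative to day 4, none rose, where 2.64% of all rows did, and 2 fell, Bub1 and Ncapg (4.76%, against 2.94%); at an unadjusted p below 0.05 1 was higher and 8 were lower, where 10.2% of all rows were higher and 10.5% lower. The log2 change was negative for 32 of the 42 at day 6 relative to day 4, with a median of -0.17 against 0.01 over all rows. The day 4 libraries lay above those of day 2 for 10 of the 42 (23.8%, against 14.2% of all rows) and below them for 6 (14.3%, against 14.3%). The day 6 libraries lay above those of day 4 for 1 (2.38%, against 11.5% of all rows) and below them for 9 (21.4%, against 11.8%). With Kif2c and Ncapd2 left out, the remaining 42 of the 44 summed to 7900.0 to 8255 normalized counts in TUNA day 2 libraries, 7788 to 9078 in TUNA day 4, 7220.0 to 7293 in TUNA day 6 and 7507 to 8122 in control libraries.

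Over the 31 genes that passed in no comparison, the log2 changes against the control at the 3 days ran from -0.72 (Ncapd2) to 0.73 (Pttg1), and 89 of the 93 were under 1.5-fold. A p that missed the threshold does not show that these genes did not change.

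Other mitosis genes outside the 44 were described from lists of related genes. For reading their counts, 6.99% of all rows rose and 7.76% fell at day 4, and 3.07% rose and 3.15% fell at day 6. Of the 3 genes named by rule from a list of regulators of mitotic gene transcription, Mybl2, which encodes B-Myb, fell at day 4. Mybl2 had 69.5 ± 7.92 normalized counts at day 4 and 128 ± 16.1 in the control (SD, n = 3 each). Its log2 change was -0.87 ± 0.16 (adjusted p = 0.00168). Mybl2 also fell at day 4 relative to day 2 (log2 change -0.78), against 4.38% of all rows. Cdkn1a, the p21 inhibitor of cyclin-dependent kinases, rose, with 17 ± 4.12 at day 4 and 4.9 ± 3.24 in the control (log2 change 1.71 ± 0.40, adjusted p = 0.00822). The control libraries held 8.63, 2.76 and 3.31 normalized counts of Cdkn1a, all below 10. It therefore passed the filter for testing only through TUNA hairpin libraries, where it was higher. Foxm1, a transcription factor of late cell cycle genes, passed in no comparison, with a log2 change of -0.57 ± 0.52 at day 4. Of the 15 tested in that list of regulators, these were the only 2 that passed at day 4, and Lin54, a MuvB subunit, fell at day 6 relative to day 4 (log2 change -0.60 ± 0.16, adjusted p = 0.0382).

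Among 35 tested genes of the spindle, centrosome and cytokinesis, 5 rose and 2 fell at day 4, against 6.99% and 7.76% of all rows. Stil, which builds centrioles, had a log2 change of 1.14 ± 0.35, Hmmr, a spindle-pole protein, 0.86 ± 0.14, Racgap1, a central spindle partner of Kif23, -0.93 ± 0.27, and Kif22, a chromosome-arm motor, -0.81 ± 0.24. Hmmr also rose at day 6 (log2 change 0.58 ± 0.14, adjusted p = 0.0168). Against day 2, Hmmr, Mki67 and Kif18a rose at day 4 and Cep55 fell, against 3.27% and 4.38% of all rows, and Kif18a fell at day 6 relative to day 4, against 2.94%.

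Of 15 tested genes of the anaphase-promoting complex and its regulators, none rose and 2 fell at day 4, against 7.76% of all rows: Anapc10 with a log2 change of -1.27 ± 0.32 and Cdc27 with -0.72 ± 0.19. Anapc10 also fell at day 6. Of 27 tested centromere and kinetochore genes, Cenpm alone fell at day 4, against 7.76% of all rows (log2 change -1.36 ± 0.22) and day 6 (-0.90 ± 0.22). Cenpm also fell at day 4 relative to day 2 (log2 change -1.13), against 4.38% of all rows. Of 14 tested regulators of mitotic entry and exit, Cks2, a small subunit of Cdk complexes, rose at day 4 (log2 change 0.81 ± 0.18), and Gtse1 fell at day 4 relative to day 2. Of 15 genes of cohesin and condensin II, none passed at day 4 against the control; Esco2 fell at day 6 and Wapal fell at day 6 relative to day 4.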

How the data were processed

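RNA from 12 libraries of CCE cells was measured by RNA-seq. The authors deposited 1 table of log2 normalized counts; BWA, DESeq and the mouse build mm9 are named without roles, per the submitters' processing notes. A deposited 0 stands for 1 normalized count or less. No value in a column outside the 12 libraries was used. Values were raised back to normalized counts, those at 0 set to 0. Between 43.8% and 56.7% of low values were whole reads within 0.02, so many values were not whole reads and a count test was not used. Why they were not whole was not given in the sources used here. A row was tested if 3 or more libraries reached 10 normalized counts (8739 rows). Using limma 3.58.1 (R 4.3.3), log2(value + 1) in the 12 libraries was modelled by group, with an intensity trend (8 residual and 9.48 prior degrees of freedom). Adjustment was by Benjamini-Hochberg, with a threshold of 0.05.

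The 44 genes, their roles and the 9 lists of 160 other genes (155 in the table, 133 tested) were chosen with earlier results of these data known. Values in every library are given for each of the 44 that passed in at least 1 of the 5 comparisons and for Ccnb1, Cdk1, Plk1, Aurkb, Cdc20, Bub1b and Top2a; other genes are given by counts, with at most 4 named per list and comparison. Gene overlaps and exon lengths came from GENCODE M21 (GRCm38) and promoters from RefSeq (GRCm38.p6), whose build differs from that of the files; no coordinates were joined. The promoter window was shortened at its downstream end after the shares in a longer one had been seen, which lowered the share of mitosis genes with a CHR. Alternatives changed the scaling, filter, pseudocount, intensity trend, library weights, groups fitted and replicate block, or left out each library. The script was tested on simulated data, whose way of drawing the spread between libraries was revised once after a first run, with the fit itself left as it was. Whether replicate numbers pair the libraries is not known. Correlations of same-numbered libraries ran from -0.277 to 0.328. They were not set against those of libraries with different numbers, so they cannot decide it.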

Additional observations from a re-analysis of the deposited data

Results flagged for a closer look

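Some levels in the TUNA hairpin libraries differed between days when the difference itself was tested by limma with Benjamini-Hochberg adjustment. The log2 change of Prc1 was -1.01 at day 2 and -0.31 at day 4 against the same control, and the days differed by 0.7 on the log2 scale (adjusted p = 0.0175). For Bub1, day 4 differed from day 2 by 0.67 (adjusted p = 0.0107) and day 6 from day 4 by -0.75 (adjusted p = 0.00541). For Ncapg, day 6 differed from day 4 by -0.54 (adjusted p = 0.0298). No control was analysed at day 4 or day 6, so the hairpin and the time since transduction cannot be told apart here. The cause of these differences was not tested.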

How the results depend on the processing

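Across the settings the 11 genes that passed kept their direction in the comparisons where they passed, while the counts of calls moved. Without the intensity trend, 1 mitosis gene fell at day 2, 2 rose and 1 fell at day 4, 0 rose at day 6 and 1 fell at day 6 relative to day 4, with 37 rows called at day 2. With library quality weights, 4 fell at day 6, 6 rose and 2 fell at day 4 relative to day 2, and 1 rose and 8 fell at day 6 relative to day 4; the rows called were 212 at day 2, 2148 at day 4, 1475 at day 6, 1455 at day 4 relative to day 2 and 2133 at day 6 relative to day 4. Fitting only the 2 groups compared gave 2 risen at day 4, 0 risen at day 6, 1 fallen at day 4 relative to day 2, and 1 fallen at day 6 relative to day 4 with 197 rows called. With no filter on low values, 52 rows were called at day 2 and 0 mitosis genes rose at day 6; with a filter of 20 normalized counts, 1 fell at day 4 relative to day 2.

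Leaving out 1 library gave 1 to 2 fallen at day 2, 1 to 3 risen and 0 to 2 fallen at day 4, 0 to 1 risen at day 6, 1 to 3 risen at day 4 relative to day 2, and 1 to 5 fallen at day 6 relative to day 4; the rows called ran from 18 to 44, 821 to 1298, 304 to 565, 338 to 744 and 236 to 457. With the replicate block, 0 mitosis genes rose at day 6, 4 rose and 2 fell at day 4, and 3 fell at day 6 relative to day 4; rows called were 76, 1219, 507, 584 and 414. Whether the numbers pair the libraries is not known, so the block is only a description. Some small log2 changes that had not passed turned sign. With 1 library left out, Cdc20 ran from -0.19 to 0.14 at day 2 and from -0.32 to 0.01 at day 6, Ccnb1 from -0.02 to 0.17 at day 2, and Aurkb from -0.17 to 0.07 at day 2 and from -0.22 to 0.18 at day 6; Cdc20 at day 2 was 0.03 with library quality weights. The cause was not tested. Depth, at 3 libraries per group, limits what can be seen in genes near 10 normalized counts.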
